A study of Rattus norvegicus with 7 samples.

Results

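Potassium channel genes were examined in RNA sequencing libraries of rat hippocampus and hypothalamus. Members were all gene symbols of the form Kcn, letters and a number that were listed in the tables of both tissues. This gave 85 of the 15892 symbols common to the tables, and for a symbol listed at several loci the locus with the highest mean was used. Values with an OK status in every library were present for 84 members, which are described here. All 7 libraries came from male Sprague Dawley rats, 2 months old at the start, that received DHA in the diet for 6 weeks. DHA is docosahexaenoic acid, an omega-3 fatty acid concentrated in brain membranes. The groups were 4 libraries of hippocampus and 3 of hypothalamus, dissected as whole regions, and the labels do not say whether a library holds 1 rat or a pool, or whether the same rats gave both regions. Libraries of rats on chow without DHA were not analysed here, so these values carry no estimate of a diet effect.

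Potassium channels let potassium ions cross the membrane and so set the resting potential of neurons and glia, the shape of the action potential and the rate of repetitive firing. The voltage-gated families (Kv) open on depolarization and assemble with cytosolic or membrane-bound auxiliary subunits. Inward rectifiers (Kir) hold the resting potential, respond to G proteins or ATP and, in astrocytes, take up potassium released by active neurons, while tandem-pore channels (K2P) carry background current and the BK, SK and Slack families respond to calcium or sodium.

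Levels are given as deposited, in FPKM (fragments per kilobase of exon, relative to all mapped fragments). Deposited FPKM summed to between 370020 and 391349 in hippocampus and between 443335 and 471484 in hypothalamus, and FPKM carries no counts, so depth is unknown. Each tissue has its own table, with its own locus numbering, and tissue and table cannot be told apart. No test was therefore made between tissues, and all differences below are descriptions without a p-value. Of 6 marker genes of hippocampal excitatory neurons, 5 were higher in hippocampus (all except Spink8), and 9 of 9 hypothalamic neuropeptide genes were higher in hypothalamus. Genes found in neurons of either region were split, with Snap25 and Syt1 higher in hippocampus, Tubb3 higher in hypothalamus and Rbfox3 under 2-fold apart. Replicate 1 stood apart from the other libraries in both tissues. Over the members averaging 1 FPKM or more, log2(FPKM + 1) of hippocampus replicate 1 correlated with the other hippocampus libraries at r = 0.815 to 0.844, and the others among themselves at 0.854 to 0.961. In hypothalamus the values were 0.9197 to 0.945 with replicate 1 and 0.978 between replicates 2 and 3. These are correlations across genes that share libraries, given as a description.

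Channel genes made up more of the measured transcript pool in hippocampus than in hypothalamus. The total was taken over the 15805 symbols with an OK status in both tissues, each at its locus of highest mean. Summed over the 84 members, channel genes held 0.321%, 0.301%, 0.298% and 0.317% of that total in the hippocampus libraries in order of replicate. The average was 0.309% ± 0.0113 (SD, n = 4). In hypothalamus they held 0.201%, 0.192% and 0.212%, averaging 0.202% ± 0.00992 (SD, n = 3), and the groups did not overlap. In whole-tissue RNA, fewer cells of a type and less RNA per cell cannot be told apart. Mean levels reached 1 FPKM for 65 members in hippocampus and 67 in hypothalamus, and reached 10 FPKM for 30 and 23. Kcna10 and Kcnk6 were listed at 0 in all 7 libraries.

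To set the tissues side by side, values of a library were scaled so that the symbols of both tables added up to 1000000, and symbols averaging 1 FPKM or more in either tissue were compared as log2(value + 1). This left 70 members, with 14 below the minimum. To be called higher in one tissue, a member needed its lowest library there to exceed the highest library of the other tissue, and its means to be 1 or more apart on the log2 scale, which is 2-fold. By this rule 30 members (42.9%) were higher in hippocampus, where 14.5% of the 10736 symbols compared were called, and 8 members (11.4%) were higher in hypothalamus, where 13.4% were called. In either direction the count was 38 of 70 members (54.3%) beside 27.9% of all symbols. Without the 2-fold minimum, libraries did not overlap for 32 members toward hippocampus (45.7%; 28.2% of all symbols) and 13 toward hypothalamus (18.6%; 24.4% of all symbols). In either direction this was 45 members (64.3%; 52.6% of all symbols). The share of members higher in hypothalamus was thus near that of all genes, and the share higher in hippocampus was above it. The median difference, hippocampus minus hypothalamus, was 0.43 over the members and 0.05 over all compared symbols, with 44 members above 0 and 26 below. On FPKM as deposited these medians were 0.14 and -0.21, and 24 and 8 members were called, all of them also called after rescaling, beside 8.64% and 16.9% of all symbols. At that setting 8 of 70 members toward hypothalamus was below the share of all symbols. The 6 members whose call rests on the rescaling are Kcna2, Kcnc2, Kcne3, Kcnj9, Kcnk4 and Kcnma1. Leaving out replicate 1 of both tissues, 30 and 9 of 69 compared members were called, beside 18.1% and 15.9% of all symbols, and 28 and 8 of them are among the calls with all libraries. In RefSeq 11 of the 70 compared members overlap another protein-coding gene, among them the called members Kcnab2 (Nphp4), Kcnh3 (Mcrs1), Kcnh7 (Gca), Kcnip1 (Kcnmb1), Kcnj9 (Igsf8) and Kcnk2 (a gene model without a name). Fragments of overlapping genes cannot be told apart unless counted by strand, and the strand setting is not given in the sources used here.

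**Figure D1:**
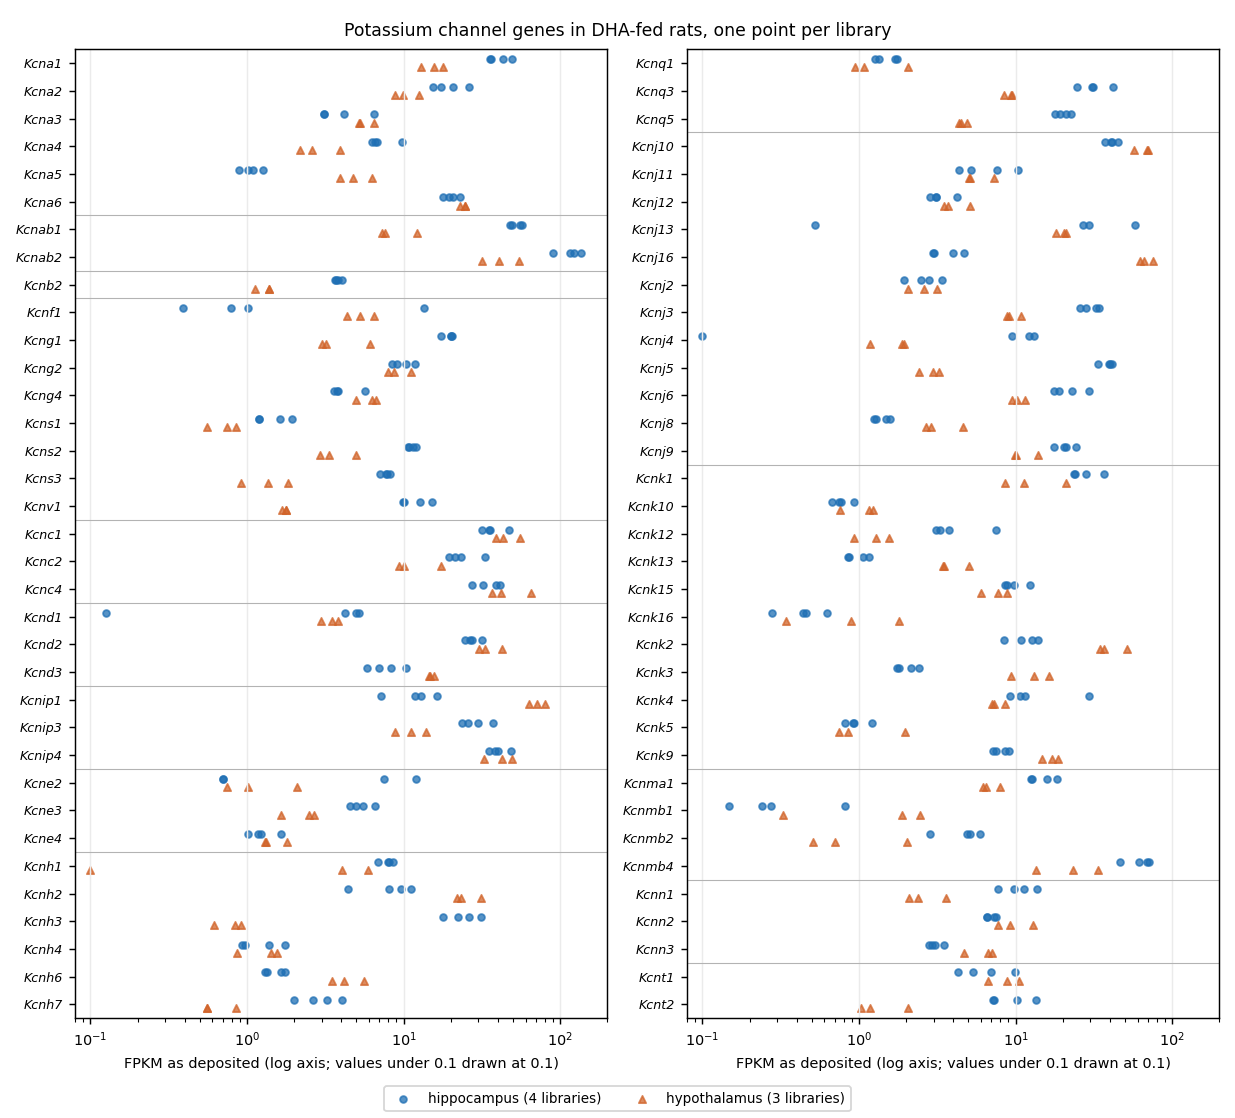
FPKM as deposited (log axis) of the 70 compared members in each library, with 1 circle per hippocampus library (4) and 1 triangle per hypothalamus library (3), and lines between subfamilies. Kcnh3 and Kcnj16 show the groups farthest apart, and single libraries stand off for Kcnd1, Kcnf1, Kcnh1, Kcnj4 and Kcnj13.

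**Figure D2:**
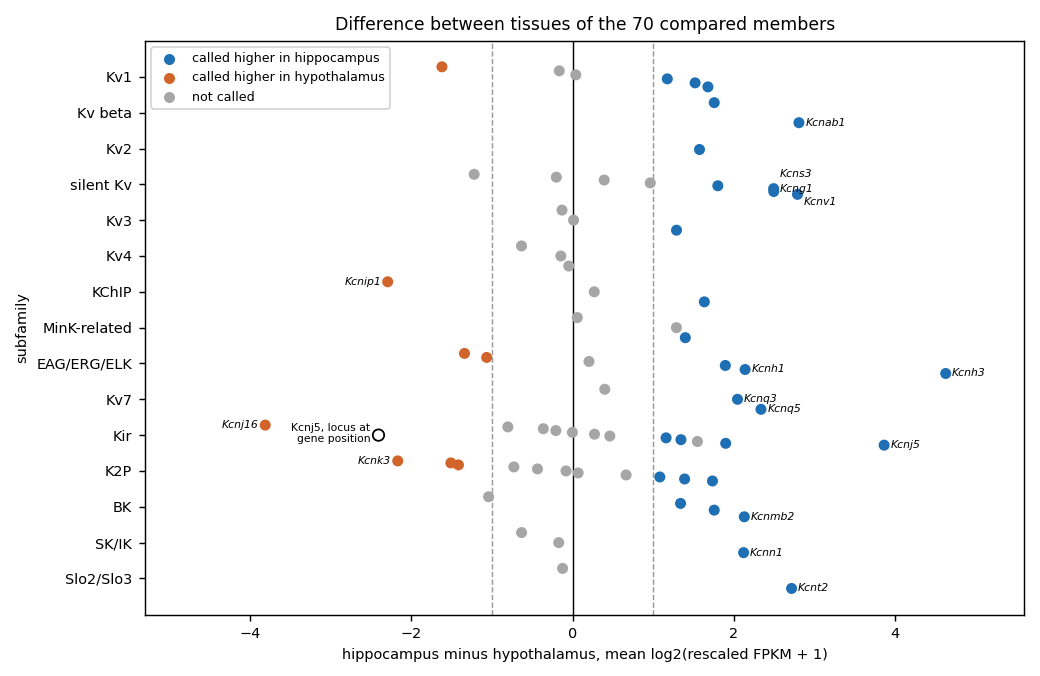
Difference of mean log2(rescaled FPKM + 1), hippocampus minus hypothalamus, for each compared member by subfamily, with dashed lines at the 2-fold minimum. Filled points show the 30 members called higher in hippocampus, the 8 called higher in hypothalamus and the 32 not called, and the open circle shows Kcnj5 at its other hippocampal locus, at -2.41.

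Promoter sequence is shown for 3 of the members farthest apart that have an entry in the RefSeq promoter table (build GRCr8), as examples of the base composition in front of these genes. Each run of 300 bases covers 250 bases before the transcription start and 50 from it, 5′ to 3′ on the strand of the gene, and capitals mark a GC box (GGGCGG on either strand), the only one of the 3 motifs searched that is present in them. Kcnab1 (chr2:151614301-151614600, plus strand) and Kcnt2 (chr13:54215057-54215356, plus strand) were higher in hippocampus, and Kcnj16 (chr10:96517074-96517373, plus strand) was higher in hypothalamus.
Kcnab1: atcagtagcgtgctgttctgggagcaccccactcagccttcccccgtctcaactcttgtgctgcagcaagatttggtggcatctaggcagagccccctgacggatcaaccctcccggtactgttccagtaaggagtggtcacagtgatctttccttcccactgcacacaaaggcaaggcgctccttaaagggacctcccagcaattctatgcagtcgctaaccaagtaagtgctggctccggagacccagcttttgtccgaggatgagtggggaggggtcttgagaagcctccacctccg
Kcnt2: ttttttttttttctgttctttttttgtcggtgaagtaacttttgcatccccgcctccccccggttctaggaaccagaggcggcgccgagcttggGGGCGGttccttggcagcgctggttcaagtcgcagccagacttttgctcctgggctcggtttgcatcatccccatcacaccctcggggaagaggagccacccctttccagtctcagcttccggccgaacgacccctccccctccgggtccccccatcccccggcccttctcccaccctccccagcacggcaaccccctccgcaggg
Kcnj16: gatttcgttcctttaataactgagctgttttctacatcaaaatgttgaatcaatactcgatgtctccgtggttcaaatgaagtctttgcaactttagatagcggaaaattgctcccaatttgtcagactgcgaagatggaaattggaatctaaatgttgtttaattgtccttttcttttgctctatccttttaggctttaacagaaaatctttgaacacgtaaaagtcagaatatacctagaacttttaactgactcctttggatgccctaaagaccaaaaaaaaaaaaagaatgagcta

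The Kcnt2 window holds 18 CpG dinucleotides at 62.3% G and C, the Kcnab1 window 9 at 56.7%, and the Kcnj16 window 6 at 34%. Kcnip1, also higher in hypothalamus, has 2 start sites in the table, with windows (not printed) at 60.3% and 65.3% G and C, and the second of them holds a GC box and an E-box. Promoter entries were found for 59 of the 84 members, with 65 start sites. A GC box was present in 34 of the 65 (52.3%), beside 33.1% of all 33469 promoters of the table. Among promoters of members called higher in hippocampus 14 of 21 (66.7%) held one, and among those called higher in hypothalamus 2 of 8 (25%). A TATA box (TATAAA) was found in 2 of the 65 member promoters, 3.08% beside 14.2% of all promoters, and the E-box CAGATG in 5, 7.69% beside 16.6%. Both motifs were searched on both strands, and a match describes the letters only.

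Within the hippocampus, Kcnab2, a beta subunit that attaches to Kv1 channels, had the highest level of all members, with 122, 135, 115 and 90.2 FPKM in replicates 1 to 4. All 4 libraries put it above the second member, Kcnmb4, the neuronal beta subunit of BK channels, at 61.6, 68.5, 46.5 and 71.5 FPKM. Kcnmb4 and the third, Kcnab1, overlapped in range. Kcnab1 in turn was above the astrocytic inward rectifier Kcnj10 in all 4 libraries, and from there to the tenth member, Kcnq3, neighbours in the order overlapped. In the hypothalamus the 3 highest members were Kcnip1 (63.5, 70.6 and 80.4 FPKM), Kcnj16 (75.4, 62.0 and 66.4) and Kcnj10 (69.7, 68.8 and 57.0), whose ranges overlapped. They encode an auxiliary subunit of Kv4 channels and the paired subunits of a glial inward rectifier. Kcnc4, Kcnc1, Kcnab2, Kcnip4, Kcnk2, Kcnd2 and Kcnh2 followed, and no neighbours among these 10 were separated.

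The fast axonal Kv1 channels split within the subfamily. Kcna1, Kcna2 and Kcna4 were higher in hippocampus, Kcna5 was higher in hypothalamus, and Kcna3 and Kcna6 overlapped. Kcna1, the juxtaparanodal and presynaptic subunit whose human counterpart is mutated in episodic ataxia, measured 35.4, 43.1, 36.3 and 49.1 FPKM in hippocampus and 17.7, 15.7 and 12.9 FPKM in hypothalamus, a difference of 1.68 on the log2 scale. Kcna2, which forms mixed channels with Kcna1, measured 15.4, 20.5, 17.3 and 26.05 FPKM against 12.6, 9.96 and 8.86 FPKM, a difference of 1.17. Kcna4, an inactivating subunit, measured 6.72, 6.55, 6.26 and 9.82 FPKM against 3.93, 2.18 and 2.59 FPKM, a difference of 1.52. In each of these 3 genes the lowest hippocampus library lay above the highest hypothalamus library. Kcna5, known also from cardiac atrium and vascular muscle, went the other way, at 0.894, 1.09, 1.26 and 1.02 FPKM in hippocampus and 3.91, 4.74 and 6.28 FPKM in hypothalamus, a difference of -1.62.

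A share inside a library does not depend on how that library was scaled. Kcna1 held 43.8% ± 1.07 (SD, n = 4) of the summed Kv1 FPKM in hippocampus and 24.2% ± 2.60 (SD, n = 3) in hypothalamus, and Kcna6 held 21.8% ± 1.51 and 38.0% ± 3.66. Kcna6 was therefore the largest Kv1 member in all 3 hypothalamus libraries and Kcna1 in all 4 hippocampus libraries. Kcna5 held 0.883% to 1.51% of the sum in hippocampus libraries and 5.78% to 10.4% in hypothalamus libraries.

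Both Kv beta subunits, redox-enzyme relatives that bind Kv1 channels in the cytosol and speed inactivation or promote surface delivery, were higher in hippocampus. Kcnab1 measured 56.8, 47.4, 49.1 and 55.2 FPKM in hippocampus and 12.1, 7.65 and 7.28 FPKM in hypothalamus. The groups were far apart, with a difference of 2.81 on the log2 scale and a 7.09-fold ratio of rescaled means. Kcnab2 measured 31.5, 40.8 and 54.7 FPKM in hypothalamus and had a difference of 1.76. Kcnab3, listed in the hippocampus table alone, measured 7.37, 7.88, 9.13 and 4.43 FPKM there.

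Among delayed rectifiers of the Kv2 type, Kcnb2 was higher in hippocampus, at 3.64 to 4.02 FPKM against 1.13 to 1.39 FPKM (difference 1.56). The modifier or silent Kv subunits form no channel alone and alter Kv2 channels when joined to them. Of 10 such members 8 were compared, 4 were higher in hippocampus (Kcng1, Kcns2, Kcns3, Kcnv1) and none was called higher in hypothalamus. Over all symbols 14.5% were called toward hippocampus and 13.4% toward hypothalamus. Kcnv1 measured 9.97, 12.7, 10.1 and 15.3 FPKM in hippocampus and a steady 1.76, 1.68 and 1.78 FPKM in hypothalamus (difference 2.79). Kcns3 measured 7.67, 7.87, 8.24 and 7.08 FPKM against 1.83, 1.36 and 0.913 FPKM (difference 2.49). Kcng1 measured 20.2, 20.3, 20.1 and 17.3 FPKM against 3.21, 3.003 and 6.06 FPKM (difference 2.49). For these 3 subunits no hippocampus library came near the hypothalamus range. Kcng2 and Kcng4 overlapped between tissues, and their shares of the silent subunit sum were higher in hypothalamus, 28.6% ± 2.10 against 14.03% ± 0.867 for Kcng2 and 18.4% ± 0.525 against 5.88% ± 0.674 for Kcng4. Kcnf1 rested on 1 library: it read 13.5 FPKM in hippocampus replicate 1, 1.02, 0.390 and 0.786 FPKM in replicates 2 to 4, and 5.23, 4.37 and 6.44 FPKM in hypothalamus. With all libraries the groups overlapped, and without replicate 1 of both tissues the difference was -2.15 and Kcnf1 was called higher in hypothalamus.

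Kv3 channels allow fast spiking. Kcnc1 and Kcnc4 were among the 10 highest members of both tissues and overlapped between them. Kcnc1 measured 47.2, 35.8, 31.8 and 35.1 FPKM in hippocampus and 38.6, 43.3 and 55.3 FPKM in hypothalamus, and Kcnc4 27.2 to 41.3 FPKM and 36.7 to 65.0 FPKM. Kcnc2 was higher in hippocampus, at 19.6 to 33.2 FPKM against 9.38 to 17.3 FPKM, and its share of the Kv3 sum was 25.4% ± 6.55 against 12.1% ± 5.81.

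Kv4 channels carry the somatodendritic A-type current that delays firing and filters dendritic input, together with KChIP calcium sensors and dipeptidyl peptidase-like subunits. No Kv4 pore subunit was called, and of the 3 compared KChIPs 1 was called in each direction. Kcnd2 measured 24.6, 31.5, 27.5 and 26.7 FPKM in hippocampus and 42.4, 32.9 and 30.5 FPKM in hypothalamus and overlapped after rescaling, with a difference of -0.05. Kcnd2 overlaps a second gene model, Kcnd2l1, in the RefSeq table, and how the authors' counting divided them is not given in the sources used here. Kcnd3 was higher in every hypothalamus library, at 14.5 to 15.5 FPKM against 5.87 to 10.4 FPKM, but under 2-fold, with a difference of -0.63.

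Kcnip1, the KChIP typical of inhibitory neurons, measured 7.13, 11.9, 16.2 and 12.8 FPKM in hippocampus and 63.5, 70.6 and 80.4 FPKM in hypothalamus. The difference was -2.29, a 4.83-fold ratio of rescaled means. Kcnip3, the calcium sensor also known as DREAM or calsenilin, went the opposite way, at 37.0, 29.8, 23.5 and 25.9 FPKM against 8.82, 11.1 and 13.9 FPKM (difference 1.63). Kcnip4 overlapped, at 34.8 to 48.4 FPKM and 32.4 to 49.1 FPKM. The make-up of the KChIP pool was thus different: Kcnip1 held 14.9% ± 5.36 of it in hippocampus and 57.6% ± 4.804 in hypothalamus, and Kcnip3 held 35.6% ± 6.83 and 9.03% ± 1.54. Genes of inhibitory neurons were measured beside this, and of 5 listed 1 was called higher in hypothalamus and 4 did not overlap in that direction, with summed levels of 329 to 473 FPKM in hippocampus and 779 to 952 FPKM in hypothalamus. Their part in the Kcnip1 difference was not tested.

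The dipeptidyl peptidase-like subunits belong to a list of 16 partner genes, of which 12 were found in both tables and 10 compared. Of these 10, 2 were higher in hippocampus, 2 in hypothalamus and 6 were not called, with a median difference of -0.20. The shares of all symbols called were 14.5% toward hippocampus and 13.4% toward hypothalamus. Dpp6 measured 82.8, 68.2, 62.1 and 52.8 FPKM in hippocampus and 190, 205 and 275 FPKM in hypothalamus (difference -1.44). Dpp6 is listed at 2 loci in each table, and with both summed the difference was -0.52 and the call ended. Dpp10 was also higher in every hypothalamus library (14.8 to 26.5 FPKM against 6.42 to 10.2 FPKM) at just under 2-fold, -0.96. Amigo2, related to a Kv2 partner, was higher in hypothalamus (difference -1.51), and Lgi1, a secreted protein that acts at Kv1-bearing synapses and is mutated in familial lateral temporal epilepsy, was higher in hippocampus (42.0 to 64.2 FPKM against 19.0 to 31.0 FPKM, difference 1.45). Lrrc26, a gamma subunit that lets BK channels open at rest, was the other gene higher in hippocampus, at 2.17 to 6.49 FPKM against 0.0353 to 0.0795 FPKM (difference 3.10).

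**Figure D3:**
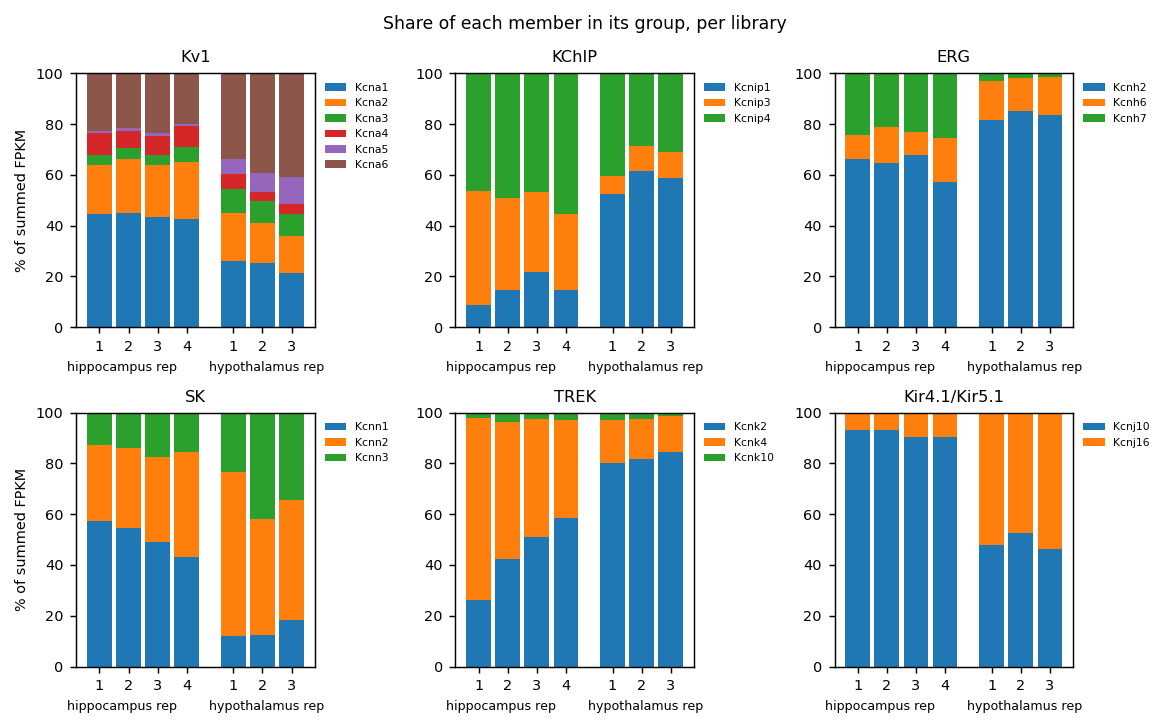
Share of each member in the summed FPKM of its group, 1 bar per library, for 6 groups of related subunits. Kcnip1 holds 8.65% to 21.7% of KChIP in hippocampus and 52.3% to 61.7% in hypothalamus, and Kcnj16 holds 6.71% to 9.61% and 47.4% to 53.8% of the Kir4.1/Kir5.1 pair.

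The EAG, ERG and ELK family, slow voltage-gated channels with a cyclic-nucleotide-like domain, contained the compared member with the widest difference. Kcnh3, an ELK channel of forebrain neurons that restrains excitability, measured 31.1, 26.2, 22.3 and 17.8 FPKM in hippocampus and 0.832, 0.617 and 0.911 FPKM in hypothalamus. The difference was 4.62 on the log2 scale, and the ratio of rescaled means was 38.2-fold. Its neighbour in function, Kcnh4, overlapped at 0.925 to 1.75 FPKM and 0.863 to 1.56 FPKM. Kcnh1, an EAG channel, measured 6.84, 8.51, 7.95 and 8.02 FPKM against 0, 4.02 and 5.90 FPKM in hypothalamus and was called higher in hippocampus. By its place in the row order, this hypothalamus locus stands on the strand opposite the gene, and replicate 1 was listed at 0 there and at 4.73 FPKM at the locus on the strand of the gene. With the loci on the strand of the gene in both tissues the difference was 1.54 and the call stayed. With both loci summed the difference was 0.53, and without replicate 1 of both tissues it was 0.99, and the call ended in both cases.

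Among ERG channels, which repolarize slowly and dampen firing, the subunits went in opposite directions. Kcnh2, the subunit of the cardiac rapid delayed rectifier, measured 11.1, 8.03, 9.55 and 4.41 FPKM in hippocampus and 21.9, 23.2 and 31.1 FPKM in hypothalamus (difference -1.34). Kcnh6 measured 1.65, 1.75, 1.29 and 1.34 FPKM against 4.14, 3.47 and 5.58 FPKM (difference -1.07), which is close to the 2-fold minimum. Kcnh7 measured 4.07, 2.63, 3.26 and 1.98 FPKM against 0.856, 0.551 and 0.554 FPKM (difference 1.89). No library of one tissue reached the range of the other for any of these 3 genes. Kcnh7 therefore held 23.5% ± 1.87 of the ERG sum in hippocampus and 2.23% ± 0.865 in hypothalamus, and Kcnh2 held 63.9% ± 4.73 and 83.4% ± 1.92.

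Kv7 channels carry the M-current, a subthreshold brake that muscarinic receptors release. Kcnq3 measured 31.3, 30.7, 24.7 and 41.7 FPKM in hippocampus and 9.46, 9.30 and 8.49 FPKM in hypothalamus (difference 2.04). Kcnq5 measured 17.8, 22.6, 19.3 and 21.1 FPKM against 4.33, 4.47 and 4.92 FPKM (difference 2.34). Both were separated by a wide gap, and their shares of the Kv7 sum overlapped between tissues. Kcnq1, the cardiac and epithelial member, overlapped at 1.26 to 1.75 FPKM and 0.948 to 2.05 FPKM.

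The small MinK-related subunits modify several voltage-gated channels. Kcne3 was called higher in hippocampus, at 4.55 to 6.605 FPKM against 1.64 to 2.69 FPKM. In both tables the locus used for Kcne3 stands, by its place in the row order, on the strand opposite the gene, and the locus on the strand of the gene gave a difference of 0.26 and no call. Kcne4 overlapped, at 1.02 to 1.65 FPKM and 1.31 to 1.80 FPKM.

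G protein-gated inward rectifiers (GIRK) slow firing when inhibitory transmitters bind their receptors. For 3 of their subunits every hippocampus library lay above every hypothalamus library. Kcnj3 measured 28.3, 32.6, 25.7 and 34.0 FPKM in hippocampus and 10.9, 9.11 and 8.87 FPKM in hypothalamus (difference 1.90). Kcnj6 measured 18.8, 23.1, 17.7 and 29.6 FPKM against 10.2, 9.47 and 11.4 FPKM (difference 1.34). Kcnj9 measured 24.3, 20.4, 20.9 and 17.7 FPKM against 10.1, 9.98 and 13.8 FPKM (difference 1.16). Kcnj9 has a second locus on the opposite strand, and its gene overlaps Igsf8 in the RefSeq table. With both Kcnj9 loci summed the difference was 0.85 and the call ended.

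The value of the fourth subunit, Kcnj5, depended on the locus. By the rule of the highest mean, Kcnj5 measured 40.03, 41.0, 39.2 and 33.8 FPKM in hippocampus and 2.40, 3.22 and 2.99 FPKM in hypothalamus, a difference of 3.86. The hippocampus table lists 3 loci under this symbol, and the one used here, with a second at 8.28, 8.29, 7.996 and 9.61 FPKM, stands at the end of its chromosome's rows, away from the place of the gene in the RefSeq order. The third stands at the place of the gene and read 0.221, 0.181, 0.264 and 0 FPKM. With that locus the difference was -2.41 and Kcnj5 was called higher in hypothalamus, the reverse of the other reading, and the counts over all members became 29 and 9. Rows out of place in this way were 65 of 14855 in hippocampus (0.438%) and 76 of 14571 in hypothalamus (0.522%). The hippocampal level of Kcnj5 is therefore uncertain. By the rule of the highest mean, Kcnj5 held 34.5% ± 3.66 of the GIRK sum in hippocampus and 8.45% ± 1.53 in hypothalamus, and Kcnj3 held 26.9% ± 2.20 and 28.3% ± 4.27, which overlapped. At the place of the gene, Kcnj5 held 0.239% ± 0.174 of the GIRK sum in hippocampus and 8.45% ± 1.53 in hypothalamus, and Kcnj3 held 41.0% ± 1.57 and 28.3% ± 4.27.

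The glial inward rectifiers held the widest difference toward hypothalamus among the called members. Kcnj16 encodes Kir5.1, which forms pH-sensitive channels with the Kcnj10 product Kir4.1, the main potassium uptake channel of astrocytes. Kcnj16 measured 2.97, 3.02, 3.97 and 4.70 FPKM in hippocampus and 75.4, 62.0 and 66.4 FPKM in hypothalamus. The difference was -3.81, a 15.1-fold ratio of rescaled means, with no overlap. Kcnj10 measured 41.3, 40.7, 37.4 and 44.8 FPKM against 69.7, 68.8 and 57.0 FPKM. Each hypothalamus library was higher, but by less than 2-fold (difference -0.36). Kcnj16 was thus 8.18% ± 1.59 (SD, n = 4) of the pair's sum in hippocampus and 51.1% ± 3.30 (SD, n = 3) in hypothalamus. Kcnj10 has a second locus in each tissue. In order of replicate it read 0, 9.86, 10.8 and 15.8 FPKM in hippocampus and 0, 33.0 and 33.6 FPKM in hypothalamus. With loci summed the Kcnj10 difference was -0.53, still without a call, and the hypothalamic share of Kcnj16 was 44.0%.

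Of 8 astrocyte markers 7 were found, of which 3 were called higher in hypothalamus, 1 (Slc1a2) in hippocampus and 3 overlapped. Their sum was 1277 to 1501 FPKM in hippocampus and 1207 to 1648 FPKM in hypothalamus, overlapping ranges. The members of the list differed, with Aqp4 at 72.2 to 106 FPKM in hippocampus and 197 to 272 FPKM in hypothalamus, and Slc1a2 at 504 to 863 FPKM and 191 to 257 FPKM. The part of astrocyte number or type in the Kcnj16 difference was not tested.

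Kcnj8, the pore of the ATP-sensitive channel of pericytes, measured 1.29, 1.57, 1.48 and 1.24 FPKM in hippocampus and 4.601, 2.67 and 2.89 FPKM in hypothalamus. The groups did not overlap, and the difference of -0.80 was under 2-fold. Its sulfonylurea receptor Abcc9 was also higher in every hypothalamus library, at 2.48 to 3.59 FPKM against 4.89 to 5.91 FPKM (difference -0.59). Of 5 pericyte and vascular muscle markers, Abcc9 included, 3 did not overlap toward hypothalamus, none was called, and the list sum ranged widely, from 47.7 to 870 FPKM in hippocampus and from 85.3 to 332 FPKM in hypothalamus. Kcnj11, the pore of neuronal and islet ATP-sensitive channels, overlapped at 4.33 to 10.4 FPKM and 5.06 to 7.24 FPKM. The strong rectifiers Kcnj2 and Kcnj12 overlapped as well. Kcnj4, a strong rectifier of forebrain neurons, read 0, 13.1, 9.53 and 12.2 FPKM in hippocampus and 1.17, 1.87 and 1.95 FPKM in hypothalamus and was not called. By row order this hippocampal locus stands on the strand opposite the gene, and the hypothalamus locus on the strand of the gene. The other hippocampal locus of Kcnj4, on the strand of the gene, read 14.8, 6.44, 5.69 and 4.34 FPKM. With the strand of the gene in both tissues the difference was 2.16 and Kcnj4 was called higher in hippocampus. It was also called with loci summed, at 3.28, and without replicate 1 of both tissues, at 2.64.

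Kcnj13 and Kcne2 are channel genes of the choroid plexus, a tissue that projects into the ventricles and whose epithelium makes cerebrospinal fluid. Both varied most among hippocampus libraries. At the locus on the strand of the gene, Kcnj13 read 29.2, 0.525, 57.6 and 26.9 FPKM in hippocampus and 5.74, 10.03 and 2.28 FPKM in hypothalamus. Kcne2, summed over its 2 loci, read 10.6, 1.30, 16.7 and 9.27 FPKM and 2.55, 1.15 and 1.45 FPKM. Hippocampus replicate 2 was the lowest hippocampus library for each and replicate 3 the highest. Ttr, the main secreted protein of choroid plexus, had the same order, at 4651, 31.9, 5771 and 1967 FPKM in hippocampus and 30.7, 44.4 and 8.25 FPKM in hypothalamus. The sum of the 8 of 9 choroid plexus markers found ranged from 34.9 to 5971 FPKM in hippocampus and from 15.7 to 54.5 FPKM in hypothalamus, with Otx2 listed at 0 in all 7 libraries. The part of adhering choroid plexus in these values was not tested. A second Kcnj13 locus on the opposite strand, where the gene overlaps Gigyf2 in the RefSeq table, did not follow this order, at 16.3, 28.9, 22.3 and 31.7 FPKM in hippocampus and 18.0, 20.4 and 21.1 FPKM in hypothalamus. It had the higher hypothalamus mean, so the comparison by highest locus set different strands against each other for Kcnj13 and gave overlap. With the strand of the gene in both tissues the difference was 1.66, with overlap and no call. With loci summed it was 1.21 and Kcnj13 was called higher in hippocampus. It was also called without hippocampus replicate 2, at 1.14, again with different strands set against each other.

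**Figure D4:**
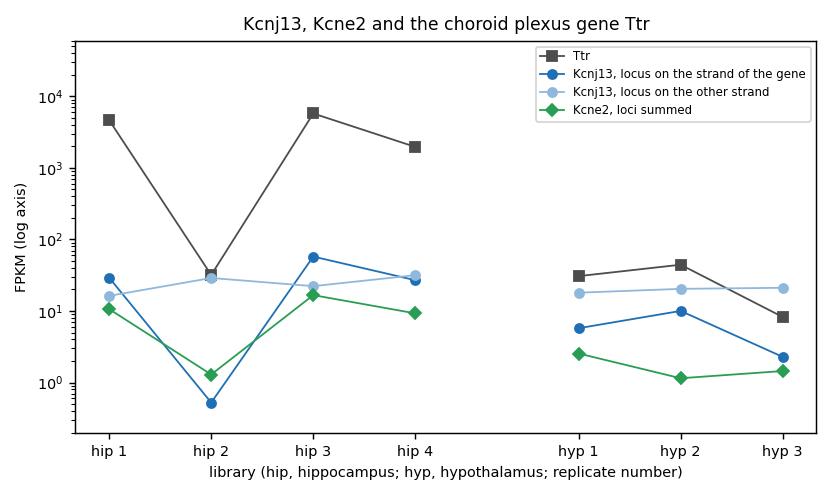
FPKM (log axis) of Ttr, of Kcnj13 at its locus on each strand and of Kcne2 with loci summed, in the 4 hippocampus and 3 hypothalamus libraries. Kcnj13 on the strand of the gene, Kcne2 and Ttr are all lowest in hippocampus replicate 2 and highest in replicate 3 among hippocampus libraries, while Kcnj13 on the other strand stays between 16.3 and 31.7 FPKM.

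Of 11 compared tandem-pore channels, 3 were called higher in each tissue, beside 14.5% of all symbols toward hippocampus and 13.4% toward hypothalamus. Of the calls toward hippocampus, that of Kcnk1 depended on the locus choice and that of Kcnk4 on replicate 1, as given below. Toward hypothalamus, Kcnk3, an acid-sensitive TASK channel of neurons that sense pH, measured 2.41, 1.75, 1.80 and 2.16 FPKM in hippocampus and 9.34, 13.1 and 16.4 FPKM in hypothalamus (difference -2.17). Kcnk2, the stretch- and lipid-gated TREK channel that polyunsaturated fatty acids open, measured 10.9, 8.40, 12.7 and 13.99 FPKM against 34.6, 36.8 and 51.3 FPKM (difference -1.51). Kcnk13 measured 0.845, 0.868, 1.17 and 1.05 FPKM against 3.42, 3.49 and 5.01 FPKM (difference -1.41). For all 3 the lowest hypothalamus library was above the highest hippocampus library. Kcnk9, the other main TASK channel, followed at less than 2-fold, 7.18 to 9.05 FPKM against 14.7 to 18.5 FPKM (difference -0.73).

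Toward hippocampus, Kcnk1, a weak rectifier, measured 27.98, 23.5, 23.9 and 36.8 FPKM and 21.0, 8.51 and 11.4 FPKM in hypothalamus (difference 1.39). A second hypothalamus locus of Kcnk1 read 10.7 and 7.73 FPKM in replicates 2 and 3 and 0.155 FPKM in replicate 1, and with loci summed the difference was 0.73 and the call ended. Kcnk12 measured 7.52, 3.10, 3.76 and 3.31 FPKM against 0.930, 1.29 and 1.55 FPKM (difference 1.73). Kcnk4, the TRAAK channel and a relative of TREK, measured 29.6, 10.6, 11.4 and 9.16 FPKM against 7.31, 7.08 and 8.55 FPKM. Its difference of 1.08 rests on hippocampus replicate 1 and was 0.69 without replicate 1 of both tissues. Inside the TREK group Kcnk2 held 26.3% to 58.5% in hippocampus and 80.2% to 84.6% in hypothalamus. Inside the TASK pair Kcnk3 held 20.2% ± 3.48 and 43.3% ± 8.52.

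The BK channel, opened by calcium and voltage together, was higher in hippocampus in its pore and in 2 beta subunits. Kcnma1, the pore, measured 12.7, 15.8, 12.5 and 18.3 FPKM in hippocampus and 7.99, 6.24 and 6.51 FPKM in hypothalamus (difference 1.34). Kcnmb4 measured 13.5, 23.2 and 33.7 FPKM in hypothalamus, below every hippocampus library, with a difference of 1.76. Kcnmb2, an inactivating subunit, measured 2.83, 5.11, 4.90 and 5.96 FPKM against 2.04, 0.511 and 0.699 FPKM (difference 2.13). Kcnmb1, the smooth muscle subunit, read 0.148 to 0.811 FPKM in hippocampus and 1.87, 2.44 and 0.327 FPKM in hypothalamus and overlapped. Its gene overlaps Kcnip1 in the RefSeq table, and without hypothalamus replicate 3 it was called higher in hypothalamus, with a difference of -1.65.

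SK channels produce the afterhyperpolarization that follows a spike. Kcnn1 measured 13.8, 11.4, 9.70 and 7.78 FPKM in hippocampus and 2.38, 2.09 and 3.59 FPKM in hypothalamus (difference 2.12). Kcnn3, the form enriched in monoamine and neuroendocrine neurons, was higher in every hypothalamus library at less than 2-fold, 2.78 to 3.49 FPKM against 4.68 to 7.03 FPKM (difference -0.63), and Kcnn2 overlapped. Kcnn1 held 51.0% ± 6.19 of the SK sum in hippocampus and 14.3% ± 3.60 in hypothalamus, and Kcnn3 held 14.9% ± 2.13 and 33.3% ± 9.24. Of the sodium-activated channels, Kcnt2 (Slick) measured 7.21, 10.2, 7.32 and 13.6 FPKM against 2.05, 1.03 and 1.18 FPKM (difference 2.71). Kcnt1 (Slack) overlapped at 4.28 to 9.91 FPKM and 6.68 to 10.5 FPKM. Kcnt1 was therefore 41.2% ± 15.0 of this pair in hippocampus and 85.3% ± 7.59 in hypothalamus.

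With all libraries, replicates of a tissue varied about as much for members as for other genes. The SD of log2(FPKM + 1) over replicates had a median of 0.245 over 65 members and 0.237 over all loci in hippocampus, and of 0.249 over 67 members and 0.252 over all loci in hypothalamus. The widest spreads were at Kcnj13, Kcnj4, Kcnf1, Kcne2 and Kcnd1 in hippocampus and at Kcnh1, Kcnmb1, Kcnmb4, Kcnk1 and Kcnmb2 in hypothalamus. Several of these members were listed at 2 loci, with replicate 1 high at one and low at the other. For Kcnj4 in hippocampus and Kcnh1 in hypothalamus the loci stand on opposite strands by row order, and replicate 1 was low at the locus off the strand of the gene. Whether replicate 1 was made or counted with another strand setting is not given in the sources used here and was not tested, so its values at a single locus of such members are uncertain. Kcnd1, another Kv4 pore subunit, read 0.125, 4.95, 4.24 and 5.195 FPKM at its higher hippocampal locus and 3.73, 2.24, 1.92 and 2.08 FPKM at its other locus, beside 3.48, 2.96 and 3.84 FPKM in hypothalamus. The same trade between loci was seen for Kcnj4 in hippocampus and for Kcnh1 in hypothalamus, where the other locus read 4.73, 2.31 and 2.60 FPKM. In each tissue 16 members were listed at several loci. Without replicate 1 the median SD was 0.199 over members and 0.194 over all loci in hippocampus, and 0.168 over members and 0.134 over all loci in hypothalamus, where members then varied more.

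**Figure D5:**
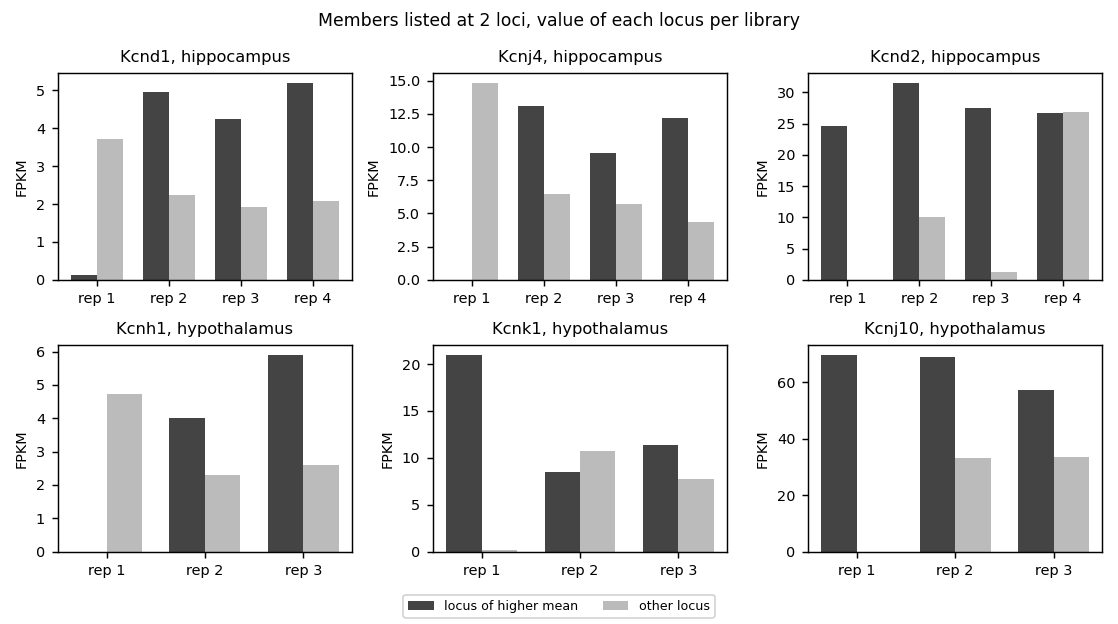
FPKM of each locus in each library for 6 members listed at 2 loci, with dark bars for the locus of higher mean and light bars for the other. Replicate 1 reads near 0 at one locus in every panel, the dark one for Kcnd1, Kcnj4 and Kcnh1 and the light one for Kcnd2, Kcnk1 and Kcnj10.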

How the data were processed

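Poly-A RNA of each library was sequenced on a HiSeq 2000, per the labels' protocols. The authors deposited 1 table of FPKM per tissue, with a status word per value. The submitters' processing notes name TopHat, TopHat2, Bowtie, Bowtie2, Cufflinks, Cuffdiff and rn5, and the annotation and strand setting are not given in the sources used here. Locus numbers shared by the tables were 10839, and 58 carried the same symbol, so symbols alone joined them. Members and gene lists were chosen with earlier results of these data known. Loci not marked OK throughout a tissue's libraries were dropped, and the pseudocount was 1. Differences on the log2 scale understate low genes. Strand and place of a locus were read from row order against RefSeq gene order (GRCr8), and 97.6% and 97.8% of single-locus symbols read on their own strand in hippocampus and hypothalamus. Full values are given for the 10 highest members per tissue, the 8 largest called differences per direction, the 5 widest spreads per tissue, members known from choroid plexus, astrocytes or pericytes, and subfamily members called in opposite directions, and other values were chosen after they were seen. Alternatives covered scaling, pseudocount, filter, locus choice, status and single libraries. Python 3.11.15, pandas 2.3.3 and numpy 2.4.6 were used. Some items are not reported here.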

Additional observations from a re-analysis of the deposited data

Results flagged for a closer look

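Among the 70 compared members, 6 had a hippocampus library whose gap to the nearest other library, divided by the range of the 4 libraries, exceeded Dixon's critical value for 4 libraries. For independent, normally distributed values, chance alone sets about 5% of such groups apart, which is 3.5 members here. These values were FPKM without a log, and all members share the same 4 libraries, so 3.5 is only a rough guide. In 4 of the 6 the library was replicate 1. Replicate 1 was the highest library for Kcnf1 (gap over range 0.952), Kcng4 (0.898), Kcnk4 (0.889) and Kcnk12 (0.850). Replicate 4 was the highest library for Kcna4 (0.872) and the lowest for Kcng1 (0.922). Of the calls for these 6 members, that of Kcnk4 ended without replicate 1 of both tissues, and Kcnf1 became called higher in hypothalamus.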

How the results depend on the processing

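Depth is unknown, and tissue and table cannot be told apart, so the tissues were not tested against each other. No paired analysis was possible because the labels do not say whether the same rats gave both regions, so that the replicate numbers tie no library of one table to a library of the other. On FPKM as deposited the members' median difference was 0.143. With a minimum mean of 5 FPKM it was 1.17, hypothalamus calls were 5 and hippocampus calls among partner genes 1. With loci summed or with single-locus symbols alone, partner genes called higher in hypothalamus were 1, and with a pseudocount of 5 the hypothalamus spread was 0.159. Loci summed gave a hypothalamic share of 27.4% for Kcna1 and 44.0% for Kcnj16. Kcnj5 reversed, to -2.41, at the locus on the strand of the gene and at the place of the gene. The cause was not tested. Leaving out libraries gave 30 to 32 hippocampus calls and 8 to 9 hypothalamus calls. Of 688 recomputed values of 35 named members, 663 kept their call or lack of one, 14 lost the call, 9 gained one and 2 reversed. Of the 663, 19 had the opposite sign, all uncalled, at Kcnc1, Kcnc4, Kcnd1, Kcnd2, Kcnip4 and Kcnj13. Kcnh6 lost it most often, with differences of -0.97 under upper quartile scaling, -0.91 under median ratio scaling and -0.92 without hypothalamus replicate 3.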
